A study of Mus musculus with 14 samples.

Results

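Glutamate and GABA receptor subunits were taken as every gene whose symbol in the probe annotation of the array belongs to the Gria, Grik, Grid, Grin, Grm or Gabr families, by 3 fixed symbol patterns. The patterns found 34 genes with 45 probes, of 16593 named genes and 25697 probes on the Illumina Sentrix Mouse-8 v2 BeadChip, on which each bead type binds labelled RNA of one transcript and is read as a brightness. All groups were male C57BL/6J mice, whose diets began at 13 months of age. The βL group ate the normal diet with 0.066% β-lapachone, a quinone that the enzyme NQO1 uses as co-substrate. The CR group, on calorie restriction, received 70% of the control food, and the control group ate the normal diet freely. Brain RNA, given as cortex in the design text of the series and as brain in the sample labels, was measured on 2 arrays each for βL, CR and control, and skeletal muscle RNA on 3 βL, 3 CR and 2 control arrays. The muscle taken is not named. Whether replicate arrays stand for different mice is not stated, and the p-values here reflect the spread among arrays, part of which may be technical.

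Glutamate is the main excitatory transmitter of the brain and GABA the main inhibitory one. AMPA, kainate and NMDA receptors are ion channels opened by glutamate, each built from several subunits, and metabotropic glutamate (mGlu) receptors signal through G proteins. GABA-A receptors are chloride channels assembled mostly from alpha, beta and gamma subunits, with delta subunits taking the place of gamma in receptors outside the synapse. The choice of subunits sets how fast a channel opens, what ions it passes and where in the neuron it sits.

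Between 53.9% and 55.4% of all probes were above background on each brain array and between 43.3% and 45.9% on each muscle array, where above background means a detection p under 0.05 against the negative control beads. Median intensities before normalization were 79.9 to 92.0 on 5 brain arrays, 127 on the brain array of control replicate 1 and 149.8 to 164.6 on the muscle arrays. The labelled tissues showed their markers: all 10 skeletal muscle genes on the array were detected in muscle, 8 of 10 pan-neuronal genes and 8 of 8 cortical layer genes in brain. In brain, Ckm, Mylpf and 4 other muscle genes were not above background. A probe can also miss a transcript that is there. The probes of Snap25, Nefl and Gad2, a synaptic protein, a neurofilament and a GABA-synthesizing enzyme that cortex holds in plenty, lay at 39.1 to 88.3 on the brain arrays and none was above background.

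Promoter sequence is shown for 3 members whose probes behaved differently between the tissues. Gria2 had the highest brain-over-muscle bound, Grik5 was above background on every brain array and no muscle array with a single probe, and Gabra6 was above background nowhere. Each is the 250 bases before the annotated start in RefSeq (GRCm38.p6), given 5′ to 3′ on the gene's strand, which is the minus strand for all 3, and the genes were chosen with their values known. Capitals mark the matches to 4 motifs searched on both strands: a TATA box (TATAAA), a GC box (GGGCGG), a CRE half-site (TGACG) and the core of the RE1 element (AGCACC and GGACAGC with 2 free bases between), to which the repressor of neuronal genes REST binds.
Gria2, chr3:80802836-80803085: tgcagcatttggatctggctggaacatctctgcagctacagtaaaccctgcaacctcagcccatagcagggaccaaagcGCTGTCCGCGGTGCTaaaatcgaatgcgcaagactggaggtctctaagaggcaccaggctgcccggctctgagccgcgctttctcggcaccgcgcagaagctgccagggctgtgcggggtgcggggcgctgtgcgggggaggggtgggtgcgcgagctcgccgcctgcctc
Grik5, chr7:25072370-25072619: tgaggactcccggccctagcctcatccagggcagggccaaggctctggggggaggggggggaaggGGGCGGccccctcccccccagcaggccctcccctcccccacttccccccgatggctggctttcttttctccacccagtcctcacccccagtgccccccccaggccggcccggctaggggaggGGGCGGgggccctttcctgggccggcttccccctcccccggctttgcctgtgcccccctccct
Gabra6, chr11:42321073-42321322: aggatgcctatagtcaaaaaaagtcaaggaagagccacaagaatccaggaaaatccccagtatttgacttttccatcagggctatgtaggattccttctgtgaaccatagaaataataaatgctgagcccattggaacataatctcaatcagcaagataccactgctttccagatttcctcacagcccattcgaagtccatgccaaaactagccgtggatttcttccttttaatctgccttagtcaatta
The RE1 core was in the Gria2 promoter, read here on the opposite strand, and in 9 of 32851 promoters of the same length (0.0274%). Among the 27 members with a promoter it was in that of Gria2 alone. It was searched for after the Gria2 sequence had been read. The GC box was in the Grik5 promoter and in 32.7% of all promoters, whereas the TATA box (12.4%) and the CRE half-site (17.8%) matched none of the 3. The Gria2 stretch held 19 CpG dinucleotides, a number that 19.7% of all promoters reached, the Grik5 stretch 8 (43.0%) and the Gabra6 stretch 2 (81.2%). A match is a run of letters and not a measured binding site, and no match says only that these letters are not in this window. Promoters were matched for 27 of 34 members (79.4%), under the 80% needed to describe CpG content for the family, so that check is void.

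In brain, 16 of the 34 subunit genes were above background (47.1%), beside 60.0% of all named genes. Every one of the 45 member probes was either above background on all 6 brain arrays (22 probes) or on none (23 probes), so no diet gained or lost a detected subunit. All 4 AMPA subunits were detected, Gria1, Gria2, Gria3 and Gria4, which make up the channels of fast excitation. Of the kainate subunits, which tune release and excitability, Grik1, Grik4 and Grik5 were detected and Grik2 was not. Of 5 NMDA subunits, those of the coincidence-detecting channel, Grin2b and Grin2c were detected, and Grin2a, Grin2d and Grin3b were not. Among mGlu receptors the presynaptic Grm7 and Grm8 were detected, and Grm3, Grm4 and Grm6, of which Grm6 serves bipolar cells of the retina, were not.

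The GABA-A subunits were detected less often, 5 of 16 genes against 9 of 13 ionotropic glutamate receptor genes, a description with no test. Gabra3 was the only one of 5 alpha subunits above background. The probes of Gabra2, Gabra4, Gabra5 and Gabra6, the last of which is typical of cerebellar granule cells, were on no array of the brain. Both beta subunits (Gabrb1, Gabrb2), 1 of 2 gamma subunits (Gabrg1) and the extrasynaptic Gabrd were detected. Gabrg3, Gabre, Gabrp, Gabrq and the 3 rho subunits Gabrr1, Gabrr2 and Gabrr3, best known from the retina, were not.

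**Figure D1:**
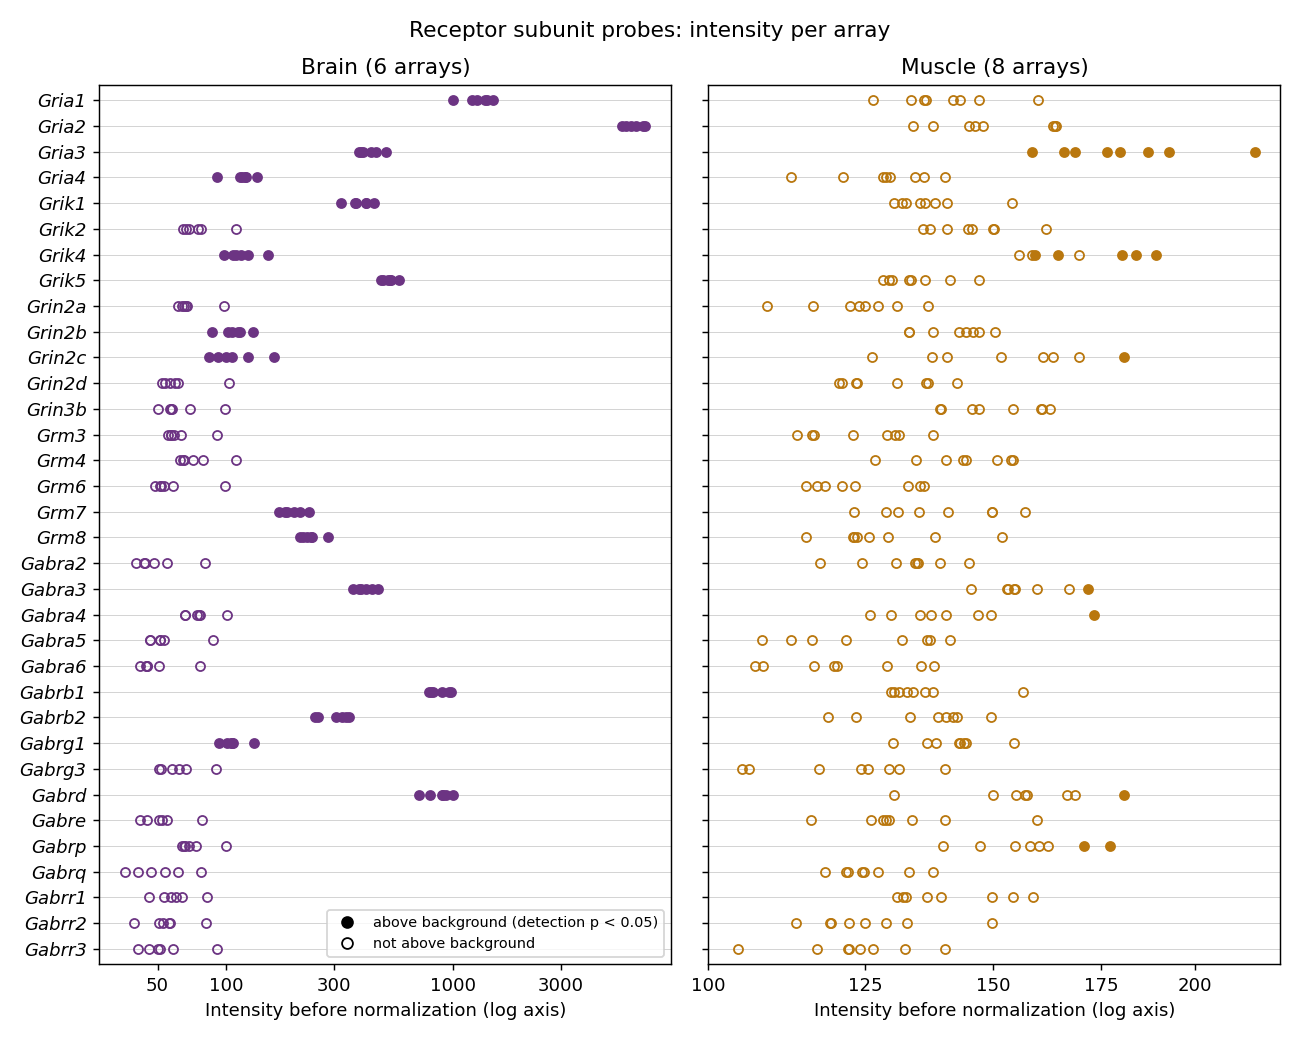
Intensity before normalization (log axes with different ranges) of 1 probe for each of the 34 subunit genes on the 6 brain arrays (left) and 8 muscle arrays (right), with filled points above background and open points not. In brain 16 genes are filled on all 6 arrays and 18 on none, and the open point that lies apart to the right in each of these rows is control replicate 1.

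Probes not above background read 36.0 to 111 on the brain arrays. Grin2a, whose transcript is known to be plentiful in adult cortex, read 66.9 and 65.3 on βL arrays, 63.8 and 61.5 on CR arrays and 98.3 and 67.8 on control arrays. Gabra6 read 44.8 and 41.7 on βL arrays, 45.0 and 44.4 on CR arrays and 76.8 and 50.7 on control arrays. Both lie with the undetected neuronal marker probes, so neither can be read as the absence of its transcript. Of the 8 members with several probes, Gria1 (3 probes), Gria2 (2), Gria3 (3) and Gabrd (2) had several above background. Grik1 had 1 of 3 and Gabrb2 1 of 2 above background, and Gabrp and Gabrr1 had none. GABA-A genes stand in clusters on the chromosomes, and in 4 pairs of neighbours only the first named was detected: Gabrb2 and Gabra6, Gabrg1 and Gabra2, Gabrb1 and Gabra4, and Gabra3 and Gabrq.

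The diets were then compared in brain on a log2 scale after background correction and quantile normalization, with limma over 9956 genes. None of the 16 subunit genes differed between any 2 diets at an adjusted p under 0.05. For βL minus control 0 of 16 members passed, against 0.331% of all genes. For CR minus control it was 0 of 16 against 0.231%, and for βL minus CR 0 of 16 against 0.281%. At these shares no call among 16 genes is what the background gives, and the count is no result about the subunits. An unadjusted p under 0.05 was also reached by 0 members in each contrast, beside 8.72% (βL minus control), 8.14% (CR minus control) and 9.36% (βL minus CR) of all genes. The methods' t-test called 0 members in the 3 contrasts, adjusted or not. By the brightest probe of each gene the differences were small and ranged between -0.25 and 0.30 for βL minus control. They ranged between -0.20 and 0.21 for CR minus control and between -0.35 and 0.42 for βL minus CR. Their medians were 0.05, 0.06 and -0.01 for βL minus control, βL minus CR and CR minus control, beside 0.00, -0.01 and 0.00 over all genes. Other probes went further in places, with 0.49 for Gria3 in βL minus control and -0.34 for Gria1 in CR minus control. Both contrasts with control share the same 2 control arrays.

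**Figure D2:**
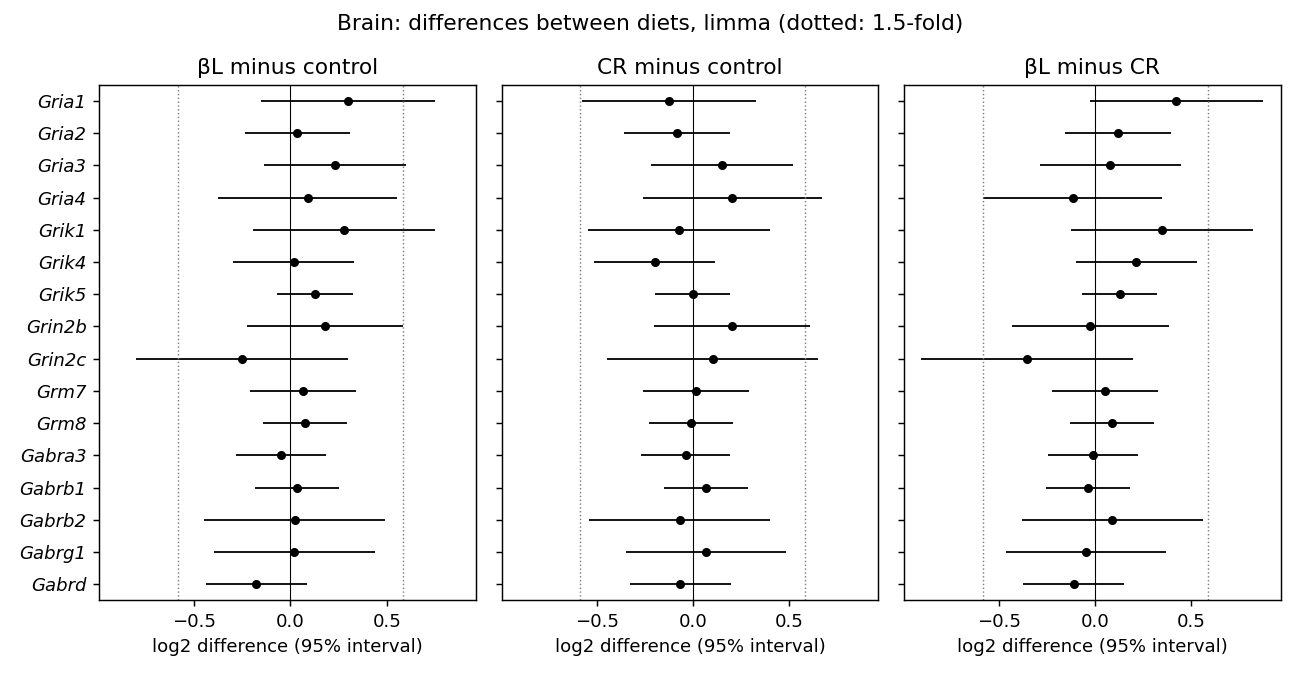
Difference between diets on the log2 scale (x axis) for each of the 16 detected subunit genes in brain, with points for the fitted difference and bars for its 95% interval from limma. All intervals cross 0, and the Gria1 interval for βL minus CR comes closest to clearing it.

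The precision sets what these zeros can show. The 95% interval of the difference stayed within 1.5-fold for 11 members in βL minus control, 13 in CR minus control and 13 in βL minus CR. For these genes a change of 1.5-fold or more in normalized intensity lay outside the interval. For the rest, at 2 arrays a diet, the interval reached past it. Near background, as for Gria4, Grik4 and Gabrg1, the offset used in the background correction shrinks a difference. For such genes a 1.5-fold change in RNA is not excluded by these intervals. Grin2c had the widest intervals (SE 0.23) and Grik5 the narrowest (SE 0.08). The median range over the 6 arrays was 0.44 for the subunits and 0.32 for all genes, with 9 of 16 subunits above and 7 below that of all genes, a description with no test.

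Gria1, which encodes an AMPA subunit that is added to synapses in plasticity, had the smallest p of any member. By its brightest probe the log2 level was 10.60 and 10.44 on βL arrays, 9.86 and 10.34 on CR arrays and 10.05 and 10.40 on control arrays. By this probe both βL arrays stood above both CR and both control arrays, whereas on its other 2 detected probes βL replicate 2 lay below CR replicate 2 and below control replicate 2. The difference was 0.42 for βL minus CR (SE 0.19, 1.34-fold, 95% interval 0.98 to 1.83), with limma adjusted p = 0.549. For βL minus control it was 0.30 (adjusted p = 0.718), and 0.11 and 0.15 on the other 2 probes. Without CR replicate 1 the difference between βL and CR was 0.18, and without CR replicate 2 it was 0.67.

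Gria2, the subunit that keeps AMPA channels closed to calcium, varied little. It lay at 12.65 and 12.66 on βL arrays, 12.39 and 12.69 on CR arrays and 12.63 and 12.62 on control arrays, so CR replicate 1 alone stood off. Its difference was 0.04 for βL minus control, with an interval of 0.85 to 1.24 in fold. Gria3 lay at 8.76 and 8.59 on βL arrays, 8.39 and 8.81 on CR arrays and 8.37 and 8.52 on control arrays. Its βL arrays were both above its control arrays, by 0.23 on average (SE 0.15, adjusted p = 0.731 by limma), while the CR arrays overlapped both other diets. On the other Gria3 probes the βL arrays also lay above the control arrays, by 0.49 and 0.34 on average and with no test. Gria4 was dimmer, at 6.34 and 5.86 on βL arrays, 6.22 and 6.21 on CR arrays and 5.80 and 6.22 on control arrays, with overlap of every diet.

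Because several AMPA genes carried more than 1 detected probe, their arrays could be compared within a gene. All 3 Gria1 probes were highest on βL replicate 1 and lowest on CR replicate 1. Their differences for βL minus CR were 0.42, 0.46 and 0.36. The pair of Gria2 probes gave 0.12 and 0.16, and the 3 Gria3 probes 0.08, 0.33 and 0.36. These 8 values were all above 0, though they rest on the same 4 arrays. Without CR replicate 1 the value by the brightest probe was -0.03 for Gria2 and -0.13 for Gria3, and without CR replicate 2 it was 0.27 and 0.29. The direction by the brightest probe thus turned with 1 array for both genes. On the other Gria3 probes βL minus CR without CR replicate 1 was 0.08 and 0.18, by the means of the same normalized values and with no test. The probes of Gabrd gave -0.10 and -0.18 for βL minus control.

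**Figure D3:**
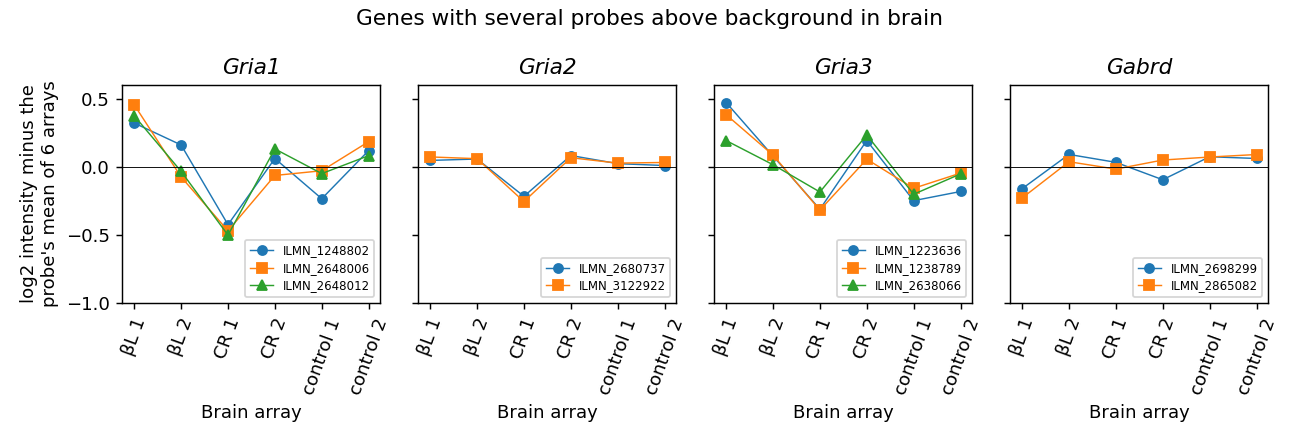
Log2 intensity of each detected probe minus its own mean over the 6 brain arrays (y axis) by array (x axis), for the 4 subunit genes with several detected probes. The probes of Gabrd and of Gria1 differ in sign on some arrays, such as βL replicate 2 for Gria1, and CR replicate 1 is the lowest array for all Gria1 and Gria2 probes.

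None of the kainate subunits passed the test. Grik5, an auxiliary kainate subunit that needs a partner to form a channel, lay at 9.004 and 8.945 on βL arrays, 8.83 and 8.86 on CR arrays and 8.86 and 8.83 on control arrays. Both βL arrays were above the other 4, by 0.13 over either diet (SE 0.08), with limma adjusted p = 0.720 against control and 0.665 against CR. Grik1 lay at 8.71 and 8.54 on βL arrays, 8.06 and 8.49 on CR arrays and 8.12 and 8.58 on control arrays. Its βL arrays cleared the CR arrays (0.35, SE 0.20, adjusted p = 0.626) but not the control arrays. Grik4, another partner subunit, lay at 6.39 and 6.03 on βL arrays, 5.94 and 6.05 on CR arrays and 6.15 and 6.24 on control arrays. Both CR arrays were below both control arrays, by -0.20 (SE 0.13, adjusted p = 0.770). No kainate direction is read from these values. Leaving out 1 array turned Grik4 to -0.16 for βL minus control (without βL replicate 1). For CR minus control it also turned Grik1 to 0.16 (without control replicate 2) and Grik5, at -0.0006 with all arrays, to 0.02 (without CR replicate 1). Grik4 kept its sign there. For βL minus control Grik1 (0.05 to 0.51) and Grik5 (0.10 to 0.16) kept their sign in these fits. Grik1, Grik4 and Grik5 all did so for βL minus CR.

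Grin2b, the NMDA subunit of juvenile and extrasynaptic receptors, lay at 6.19 and 5.74 on βL arrays, 6.04 and 5.94 on CR arrays and 5.64 and 5.93 on control arrays. The CR arrays were just above the control arrays, with a difference of 0.21 (SE 0.17, adjusted p = 0.813 by limma). Grin2c, which is best known from cerebellar granule cells and glia, lay at 5.84 and 5.66 on βL arrays, 5.89 and 6.32 on CR arrays and 6.32 and 5.69 on control arrays. Its control arrays had an SD of 0.45, and its largest difference between diets was -0.35 for βL minus CR (adjusted p = 0.667). Both NMDA genes were close to background, where the offset used in the background correction shrinks a difference.

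Grm7 lay at 7.32 and 7.20 on βL arrays, 7.35 and 7.07 on CR arrays and 7.19 and 7.19 on control arrays. Grm8, which like Grm7 restrains transmitter release from the terminal, lay at 7.64 and 7.58 on βL arrays, 7.46 and 7.58 on CR arrays and 7.57 and 7.49 on control arrays. In both genes the βL arrays were above the control arrays by less than 0.1 on average, at 0.07 for Grm7 and 0.08 for Grm8. Neither difference exceeded its SE.

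Among GABA-A subunits the lowest p belonged to Gabrd, whose receptors carry tonic inhibition. Gabrd lay at 9.45 and 9.72 on βL arrays, 9.66 and 9.73 on CR arrays and 9.75 and 9.77 on control arrays. By its brightest probe the βL arrays were both below the control arrays, by -0.18 (SE 0.11, limma adjusted p = 0.717). Most of this came from βL replicate 1. Without that array the difference was -0.04. On the other Gabrd probe βL replicate 2 lay at 9.76, above the control arrays at 9.74 and 9.73. Gabrb1 lay at 9.67 and 9.69 on βL arrays, 9.77 and 9.67 on CR arrays and 9.71 and 9.59 on control arrays. Gabra3, an alpha subunit of synapses on which benzodiazepines act, lay at 8.46 and 8.50 on βL arrays, 8.40 and 8.59 on CR arrays and 8.50 and 8.56 on control arrays. For both genes every interval between diets stayed within 1.5-fold. Gabrg1 lay at 5.65 and 6.12 on βL arrays, 5.89 and 5.98 on CR arrays and 5.71 and 6.02 on control arrays, with all diets overlapping. Gabrb2, a common beta subunit of cortical receptors, lay at 8.19 and 7.85 on βL arrays, 7.66 and 8.20 on CR arrays and 7.93 and 8.07 on control arrays, again with overlap.

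**Figure D4:**
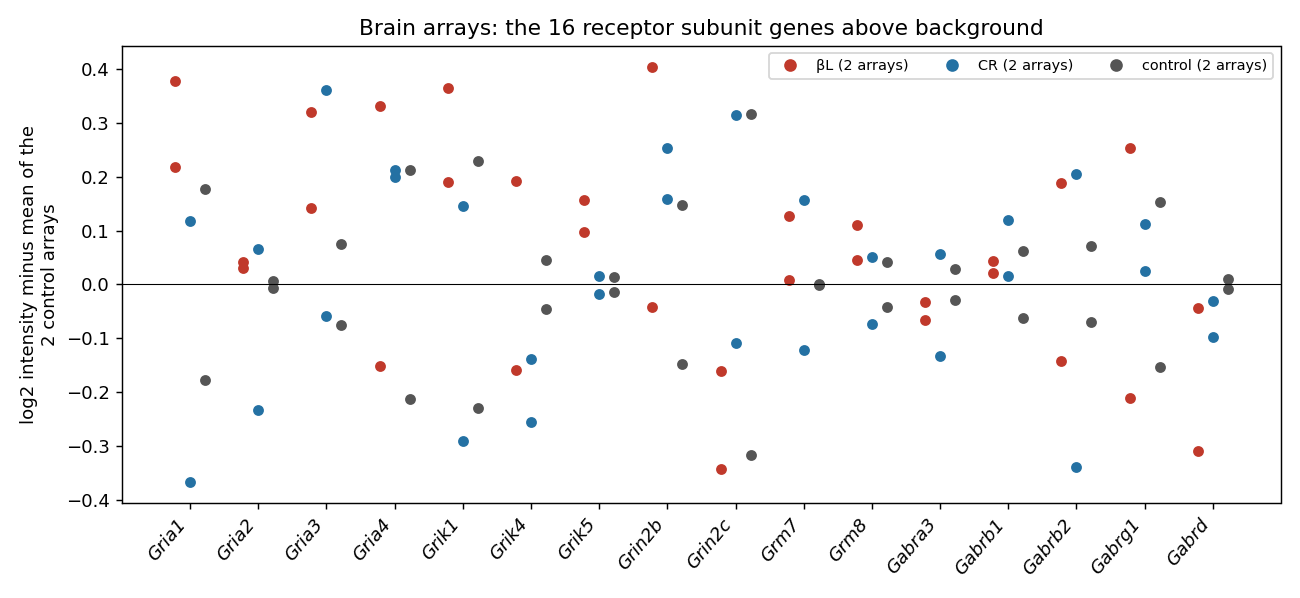
Log2 level of the 16 detected subunit genes on each brain array, minus the mean of the 2 control arrays (y axis), by gene (x axis), with βL, CR and control arrays side by side. Points of different diets interleave for most genes, and the βL points of Grik5 and of the brightest Gria1 probe lie above the CR and control points, which did not hold on the other Gria1 probes.

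By class, the median difference for βL minus control was 0.16 for the 4 AMPA genes, 0.13 for the 3 kainate genes, -0.04 for the pair of NMDA genes, 0.07 for the mGlu genes and 0.02 for the 5 GABA-A genes. For CR minus control the medians were 0.03, -0.07, 0.15, 0.00 and -0.04 in the same order. For βL minus CR they were 0.10, 0.21, -0.19, 0.07 and -0.04. No class held a gene past the test, and over all genes these medians were between -0.01 and 0.00. The βL arrays did not overlap the control arrays for 8 of 16 members (50%), beside 40.7% of all genes. By the brightest probe, Gria1, Gria2, Gria3, Grik5, Grm7 and Grm8 were higher in βL among these, and Gabra3 and Gabrd lower. On the other detected probes of Gria1 and Gabrd the βL and control arrays overlapped. The CR and control arrays did not overlap for 3 members (18.8%; 37.8% of all genes), and the βL and CR arrays for 4 members (25%; 40.2% of all genes). These shares lie near or under the background of the array.

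Part of the spread followed single arrays. CR replicate 1 was the lowest of the 6 arrays for 8 of 16 members, beside 17.6% of all genes. βL replicate 1 was the highest for 7 of 16 members, beside 16.6% of all genes. Both counts were made after the values had been seen and carry no test.

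None of the genes that work with the receptors passed the same test. Of 10 detected auxiliary subunits of glutamate receptors, 14 excitatory scaffold genes, 9 inhibitory scaffold and GABA-B receptor genes and 16 genes of transmitter synthesis and transport, limma called 0 in each list and contrast. The median difference for βL minus control was 0.08, -0.02, 0.11 and 0.04 for these lists in turn. The gene nearest a call was Dlg2, which encodes the synaptic scaffold PSD-93. It averaged 10.09 in βL brain and 10.63 in control brain, a difference of -0.54 (SE 0.08, adjusted p = 0.0789 by limma), and in CR brain it averaged 10.16, at -0.47 from control (adjusted p = 0.190). Slc17a7, the vesicular glutamate transporter of cortical excitatory neurons, averaged 12.28 in βL brain and 11.94 in CR brain (0.33, SE 0.09, adjusted p = 0.386). Slc6a11, a GABA transporter of astrocytes, was 0.31 higher in βL brain than in CR brain (SE 0.09, adjusted p = 0.423). Cacng4 and Cacng5, auxiliary subunits of AMPA receptors, gave 0.30 for βL minus control (adjusted p = 0.568) and 0.26 for βL minus CR (adjusted p = 0.505).

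Lists of other cells and of neuronal activity differed between the diet groups on these same arrays, and what set these differences was not tested. The mean log2 level of 8 detected choroid plexus genes, whose tissue makes cerebrospinal fluid, was 8.08 and 8.15 on βL arrays, 6.33 and 6.31 on CR arrays and 7.13 and 7.02 on control arrays. Limma called 6 of them higher on βL and 3 lower on CR than on control, among them Ttr. The 9 detected immediate early genes, which respond to neuronal firing, averaged 10.54 and 10.56 on βL arrays, 9.63 and 9.63 on CR arrays and 10.28 and 10.30 on control arrays, and 4 of them, Fos, Junb, Arc and Npas4, were lower on CR than on control. Markers of thalamus and hypothalamus (7 detected) averaged 6.91 and 6.97 on βL arrays, 6.39 and 6.40 on CR arrays and 6.52 and 6.54 on control arrays. Of these, 5 lay above 0 for βL minus control and 2 below, with Prkcd (1.39) and Pmch (0.97) called higher and Avp at -0.54 (limma adjusted p = 0.267). The 6 detected cerebellar genes averaged 6.63 and 6.55 on βL arrays, 6.39 and 6.49 on CR arrays and 6.31 and 6.36 on control arrays, with Pcp2, Pcp4, Cbln3, Calb1 and Fat2 not above background. The 5 detected hippocampal genes averaged 8.57 and 8.66 on βL arrays, 8.63 and 8.54 on CR arrays and 8.76 and 8.70 on control arrays, with 0 called. The 8 pan-neuronal genes stayed between 11.68 and 11.79 on all 6 arrays. The 9 microglial genes averaged 8.16 and 8.22 on βL arrays, 8.24 and 8.27 on CR arrays and 8.54 and 8.56 on control arrays, with 0 called. These lists differed between the arrays that gave the subunit values, and their part in those values was not tested. In bulk RNA, fewer cells of a type and less RNA per cell cannot be told apart.

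**Figure D5:**
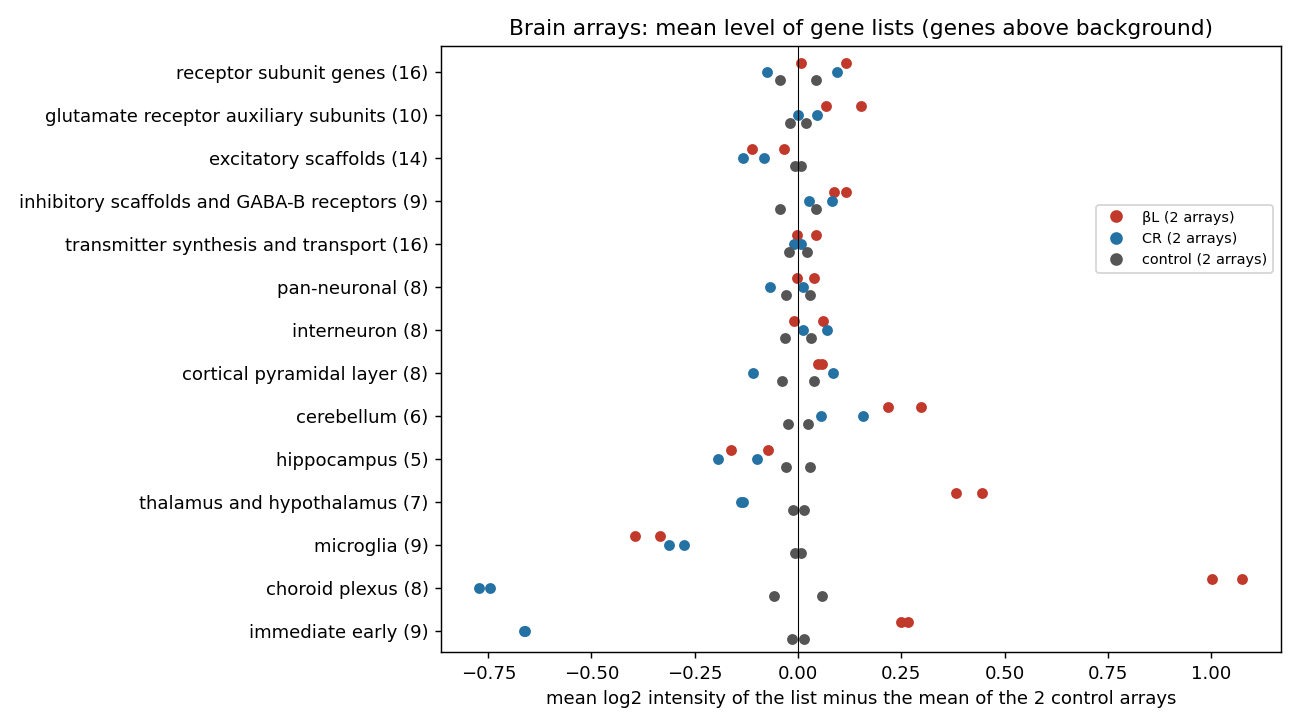
Mean log2 level of the detected genes of each list on each brain array, minus the mean of the 2 control arrays (x axis), with the number of genes in brackets and colours for the diets. The subunit genes, their partner lists and the pan-neuronal genes stay near 0 on all arrays. The choroid plexus, immediate early, microglia, thalamus and hypothalamus, cerebellum and hippocampus lists separate from the control arrays. The excitatory scaffold list, though near 0, also lies below the control arrays on βL and CR. The auxiliary subunit, inhibitory scaffold and cortical layer lists, likewise near 0, lie above the control arrays on βL but not on CR.

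Muscle served as the outgroup. There 3 of 34 members passed the filter on dim probes (8.82%, beside 53.6% of all genes), and 19 of 360 pairs of probe and array were above background (5.28%), where a detection p of 0.05 gives 5% by definition. Brain had 132 of 270 such pairs (48.9%). Gria3 was above background on all 8 muscle arrays by 1 of its 3 probes, Grik4 on 5 and Gabrp on 2.

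Gria3 lay at 5.76, 5.87 and 5.51 on βL muscle arrays, 5.90, 5.74 and 5.48 on CR arrays and 6.41 and 6.02 on control arrays. Both control arrays were above all others, by -0.50 for βL minus control (SE 0.19, limma adjusted p = 0.435) and -0.51 for CR minus control (adjusted p = 0.931). Arrays of the same contrasts did not overlap for 23.5% and 19% of all muscle genes. Neither difference passed over all genes, and without control replicate 1 the values were -0.31 and -0.32. Grik4 lay at 5.85, 5.11 and 5.35 on βL arrays, 5.99, 5.61 and 5.50 on CR arrays and 5.86 and 5.45 on control arrays. Gabrp, a subunit better known outside the brain, lay at 5.16, 5.21 and 5.09 on βL arrays, 5.75, 5.40 and 4.97 on CR arrays and 5.56 and 5.26 on control arrays. Limma called 0 of these 3 genes in βL minus control (0.0225% of all genes called), 0 in CR minus control (0%) and 0 in βL minus CR (0.0225%).

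Between the tissues, most of the subunits that could be tested were brighter in brain. With the 14 arrays normalized together, 17 members could be tested, and limma called 14 of them higher in brain than in muscle, beside 38.4% of all 10765 genes. In either direction 83.2% of all genes were called, so a call alone says little here. The filter admitted 14 of the 17 members through brain alone, so the count of higher genes is a description of these genes and not of the family. For a gene not above background on any muscle array the fold is a bound, the brain mean over a muscle floor, which is per array the dimmest signal still above background or the signal of the probe where that is brighter.

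Gria2 was at least 143-fold higher in brain and Gria1 at least 23.4-fold. Gabrb1 was at least 14.9-fold higher, Grik5 at least 8.04-fold, Grik1 at least 5.56-fold and Gabrb2 at least 3.99-fold. The presynaptic Grm8 and Grm7 were at least 2.86-fold and 2.22-fold higher, and Gria4 at least 1.07-fold. All these genes entered the comparison through brain alone, so no p-value is given as support for them. Grin2b and Gabrg1, which also entered through brain alone, were called higher in brain. No fold is given for them because the bound fell under 1, and nothing is read from these calls. Gria3, above background on all 8 muscle arrays, was 2.21 higher in brain on the log2 scale. Gabrd and Gabra3 were above background on 1 of 8 muscle arrays each and were called higher in brain, and no size is given for them.

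The remaining members did not follow. Grik4 averaged 5.82 ± 0.13 in brain and 5.81 ± 0.37 in muscle (SD, n = 6 and n = 8 arrays), a difference of 0.00 (SE 0.15, limma adjusted p = 0.985). Both levels were near background, and in muscle 5 of 8 arrays were above it, so equal RNA cannot be read from this. Grin2c averaged 5.68 ± 0.24 in brain and 5.26 ± 0.46 in muscle, where it was above background on 1 of 8 arrays, with a difference of 0.40 (SE 0.18, adjusted p = 0.0593). Gabrp was the only member with a lower value in brain that the fit called, but it was above background on 0 of 6 brain arrays and 2 of 8 muscle arrays. It entered through muscle alone, so nothing is read from that call. The other 17 members were above background on too few arrays of either tissue to be tested.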

How the data were processed

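RNA of brain (6 arrays) and muscle (8 arrays) had been hybridized to BeadChips and read with BeadStudio 3.0, according to the study's methods and the submitters' processing notes. The intensities before normalization that the authors deposited were used, one value per probe and array. Detection p-values, likewise deposited by the authors, mark probes above the negative control beads. Quantile-normalized intensities that the authors deposited served as an alternative. Groups were taken from the labels.

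Background was corrected with normexp (offset 16), fitted through the detection p-values. The arrays were quantile-normalized by tissue and put on the log2 scale in limma 3.58.1 and R 4.3.3. A probe had to be above background (p under 0.05) on 2 or more arrays of its tissue, and the brightest such probe stood for its gene, giving 9956 genes in brain and 8898 in muscle. One limma model per tissue (lmFit, eBayes) held the 3 diets, with Benjamini-Hochberg adjustment over all genes and calls at an adjusted p under 0.05. Tissues were compared over the 14 arrays normalized together. All 34 members matched the reference by gene ID. The steps were tested on simulated data.

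The members and gene lists were chosen with earlier results of these data known. All 34 members are accounted for, and some other genes of these families are not reported here. Members with values per array include, per brain contrast, the 5 with the smallest p, the highest of each class and those above background on at least 2 muscle arrays. From each pathway list, genes with the smallest p were named. Neighbouring genes were taken from their order in the reference. The number of arrays limits the precision. The alternatives tried were other background corrections, normalizations, filters, probe rules, samples, array weights, tests, a replicate block and leaving out each array.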

Additional observations from a re-analysis of the deposited data

Results flagged for a closer look

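The values of Gria3 for βL minus control lay on opposite sides of 0 in the tissues, although neither passed limma's test. They were 0.23 in brain (adjusted p = 0.731) and -0.50 in muscle (adjusted p = 0.435), each from fits within the tissue. In the fit over 14 arrays the brain difference minus the muscle difference was 0.78 (SE 0.29), which passed limma's test before the adjustment and not after it (adjusted p = 0.514 over 10765 genes). Both βL arrays of brain were above both control arrays, and all 3 βL arrays of muscle were below both control arrays. The same difference for CR minus control was 0.71 (SE 0.29, limma adjusted p = 0.996), from the same control arrays. For Grik4, also detected in both tissues, it was 0.31 for βL (adjusted p = 0.871) and -0.21 for CR (adjusted p = 0.996). The test was added after the data had been seen. The muscle values rest on 1 of 3 Gria3 probes, since the others were above background on no muscle array. The Dixon test for single arrays needs groups of at least 4, so none was tested.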

How the results depend on the processing

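In each of the 6 diet contrasts 0 members were called under all 13 alternatives, which include the methods' t-test with and without adjustment. The calls over all genes ranged between 0 and 776 in brain and 0 and 758 in muscle. That range spans all settings and is not one of limma calls alone, since the unadjusted t-test counts every unadjusted p under 0.05. The smallest adjusted p of any member over the alternatives was 0.228 in brain, for Gria1 in βL minus CR without CR replicate 2, and 0.220 in muscle, for Gria3 in βL minus control without control replicate 2. A replicate number as a block gave 0 members in each contrast. Deviations of same-numbered arrays correlated at -0.11, 0.03 and 0.18 in brain and between -0.21 and 0.19 in muscle. With 2 brain arrays a diet, both replicates give the same value, so this cannot show whether the numbers pair the samples. Differences that passed no test changed sign in 11 of 304 values for βL minus control, 18 of 304 for CR minus control and 16 of 304 for βL minus CR in brain. These values pool the 13 alternatives with the leave-one-out fits. With 1 array left out, most members changed sign in some fit for CR minus control and for βL minus CR. Several did so for βL minus control. Between the tissues 15 members were called, with 14 to 16 when an array was left out. Grin2c passed with array weights (adjusted p = 0.0310), with quantile normalization within tissue and median centring (adjusted p = 0.0120) and in 4 fits that each left out 1 array, which were βL replicate 1, CR replicate 2 or control replicate 2 of muscle and control replicate 2 of brain. Chip could not be used as a block, since the files give none. Where an array was left out, the lone array of its diet was assumed to vary like the others. Levels near background, such as those of Grin2b, Grin2c, Gria4, Grik4 and Gabrg1, limit what a fold can show. So do those of Gria3, Grik4 and Gabrp in muscle.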
